A study of Mus musculus with 6 samples.

Results

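The miR-29 family was measured with 7 of the 1900 mouse miRNA probes of a microarray, those named for miR-29a, miR-29b and miR-29c on any arm and from any gene copy. These are miR-29a-3p, miR-29b-3p and miR-29c-3p, the arms usually found in the silencing complex, and the opposite arms miR-29a-5p, miR-29b-1-5p, miR-29b-2-5p and miR-29c-5p. The probes were taken by their names on the array, such as mmu-miR-29a-3p, and no measured value was used. Adherent cultures grown from the bone marrow of adult male mice were compared between 3 samples of db/db cells and 3 samples of db/+ cells. A db/db mouse carries the db mutation of the leptin receptor on both alleles and develops obesity and type 2 diabetes, while the db/+ controls came from the same colony and carry it on 1 allele, so neither group is free of the mutation, which is present in every cell of the body. Mononuclear marrow cells of both groups spent 4 days in endothelial growth medium, lost their non-adherent cells to a wash, and were grown for another 3 days before total RNA was taken, so each sample is a mixed culture and not a sorted cell type. The study concerns the stress sensor IRE1α in diabetic wound healing, and the arrays ask which miRNAs differ between diabetic and control cells. Nothing in the labels says whether the 3 samples of a group are 3 animals, so the p-values here cover only sample-to-sample spread, which may be technical.

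MicroRNAs pair through their seed, bases 2 to 8, with sites in target mRNAs and lower the output of those mRNAs. The miR-29 family is best known as a brake on extracellular matrix: its targets include fibrillar collagens, elastin and fibrillin, and a loss of miR-29 accompanies fibrosis in mouse heart and other organs. It is also linked to insulin, since raised miR-29 lowered the response to insulin in cultured mouse adipocytes and was found in tissues of diabetic rodents. In blood cells miR-29 acts in myeloid and lymphoid differentiation.

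The sequences show why the 3 main arms are treated as a family and how little separates their probes. All 7 array target sequences were identical to the RefSeq mature sequences (GRCm38.p6), and they are given from the 5′ to the 3′ end with the seed in capitals.
miR-29a-3p: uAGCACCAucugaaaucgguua
miR-29b-3p: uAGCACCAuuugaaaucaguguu
miR-29c-3p: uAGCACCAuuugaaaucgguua
The 3 arms share the seed AGCACCA, which none of the other 1893 probes on the array has. With positions counted from 1 at the 5′ end, miR-29a-3p and miR-29c-3p differ by a single base, C10U, and how well their probes tell them apart was not tested. Between miR-29c-3p and miR-29b-3p the differences are G18A, U21G and A22U, and miR-29b-3p is longer, with 23 bases against 22. As background from human cells, the last bases of miR-29b, AGUGUU, have been reported to send it to the nucleus. Of the 1900 array targets, 2 end in AGUGUU, read on the RNA strand only, namely miR-29b-3p and miR-92b-5p, and 0.789% hold it anywhere.

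The opposite arms are shown because they tell apart gene copies that miR-29b-3p does not.
miR-29a-5p: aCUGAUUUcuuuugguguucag
miR-29b-1-5p: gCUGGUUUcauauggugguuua
miR-29b-2-5p: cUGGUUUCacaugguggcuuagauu
miR-29c-5p: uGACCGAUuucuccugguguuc
These 4 arms have 4 different seeds. In RefSeq (GRCm38.p6) the family lies in 2 clusters. On the minus strand of chromosome 6, Mir29a holds miR-29a-3p at chr6:31062673-31062694, and Mir29b-1, with 275 bases between the hairpins, holds miR-29b-3p at chr6:31063025-31063047. On the plus strand of chromosome 1, Mir29b-2 holds the same miR-29b-3p sequence at chr1:195037091-195037113, and Mir29c, with 426 bases between the hairpins, holds miR-29c-3p at chr1:195037600-195037621. The miR-29b-3p probe therefore reads RNA of both loci together.

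Every probe had 2 spots, and the scanner signals given here are the mean of their median brightness. Arrays were made comparable by background correction and quantile normalization of the single spots on the log2 scale, and the 2 spots were averaged after that. A probe is called detected on an array if it was brighter than the 95th percentile of that array's 4 blanks. The median blank lay between 39.1 and 97.2 across arrays, highest on db/+ replicate 1. Between 751 probes (db/db replicate 3) and 1855 probes (db/db replicate 1) were detected per array. On db/db replicate 3 the median miRNA probe, at 65.7, was dimmer than the median blank, at 73.0. Of 1181 probes tested with limma, 0 passed at a Benjamini-Hochberg adjusted p under 0.05. At an unadjusted p under 0.05, 34 probes (2.88%) were higher and 25 (2.12%) were lower in db/db cells. Brightness also depends on the probe, so the sections below compare arrays for each probe and do not rank the members by abundance.

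Markers showed a mixture of cell types. The endothelial miR-126a-3p was detected on all 6 arrays and its opposite arm on 1. The pan-haematopoietic miR-142a arms, both detected on all 6 arrays, had a summed normalized intensity of 531 to 1431 in db/+ and 1194 to 2642 in db/db samples. All 5 stromal probes (miR-199a arms, miR-214-3p, miR-143-3p and miR-145a-5p) were detected on all 6 arrays, with sums of 12559 to 16502 in db/+ and 7106 to 12181 in db/db samples. These sums do not overlap, by a narrow gap. Taken singly, only miR-214-3p among the 5 had groups that do not overlap, where 9.65% of all tested probes did. The 4 myeloid probes summed to 6212 to 14596 in db/+ and 11580 to 15609 in db/db samples, mostly miR-223-3p, the 1 of the 4 with a log2 difference above 0, while the median over the 4 was -0.26. Lymphoid sums, mostly miR-342-3p, were 2621 to 2969 and 1999 to 2921, while the lymphoid miR-150-5p was detected on only 3 arrays. Erythroid sums, mostly miR-451a, were 314 to 2267 and 403 to 1035. None of the 5 epithelial probes was detected on all 6 arrays. In such bulk samples, fewer cells of a type and less of a miRNA per cell cannot be told apart.

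The miR-29a-3p probe (mmu-miR-29a-3p) was among the brightest of the array and, after normalization, varied less across samples than the other main arms. It gave a scanner signal of 21476, 18098 and 12185 in db/+ replicates 1, 2 and 3, and of 12909, 16995 and 14316 in db/db replicates 1, 2 and 3. That signal ranked between the 3rd and the 9th of the 1900 probes on every array, and was at least 196 times the median blank. After normalization it read 13.94, 13.74 and 14.26 on the log2 scale in db/+ samples and 13.90, 13.64 and 14.02 in db/db samples. The groups overlapped, and the highest and the lowest array differed by 0.63, where the median range of the 671 probes detected on all 6 arrays was 0.76. Quantile normalization sets each value by its rank, so the steady high rank of this probe limits its range. Its means were 13.98 ± 0.27 (SD, n = 3) and 13.85 ± 0.20 (SD, n = 3).

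The miR-29b-3p probe (mmu-miR-29b-3p) varied far more. Its scanner signal was 457, 1271 and 342 in db/+ replicates 1, 2 and 3, and 664, 935 and 2227 in db/db replicates 1, 2 and 3. Against the median blank of its array this was 4.70, 19.9 and 8.76 times in db/+ samples and 15.1, 16.5 and 30.5 times in db/db samples. The normalized log2 intensity was 8.21, 9.89 and 9.66 in db/+ samples and 9.82, 9.61 and 10.95 in db/db samples. The range was set by the low db/+ replicate 1 and the high db/db replicate 3, while the other 4 samples lay between 9.61 and 9.89 with the groups mixed. That range, 2.74 on the log2 scale, was exceeded by 8 of the 671 probes detected on all arrays. The db/+ mean was 9.25 ± 0.91 (SD, n = 3), and the db/db mean was 10.13 ± 0.72 (SD, n = 3).

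The miR-29c-3p probe (mmu-miR-29c-3p) followed the same arrays with a smaller swing. Its scanner signal was 2554, 3756 and 2204 in the db/+ samples and 3145, 3340 and 5515 in the db/db samples. On the normalized log2 scale these were 10.67, 11.55 and 12.09 against 12.05, 11.30 and 12.44. Again db/+ replicate 1 was the lowest and db/db replicate 3 the highest, and the groups overlapped. The range of 1.78 was exceeded by 34 of the 671 probes. Its means were 11.44 ± 0.72 (SD, n = 3) and 11.93 ± 0.58 (SD, n = 3).

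**Figure D1:**
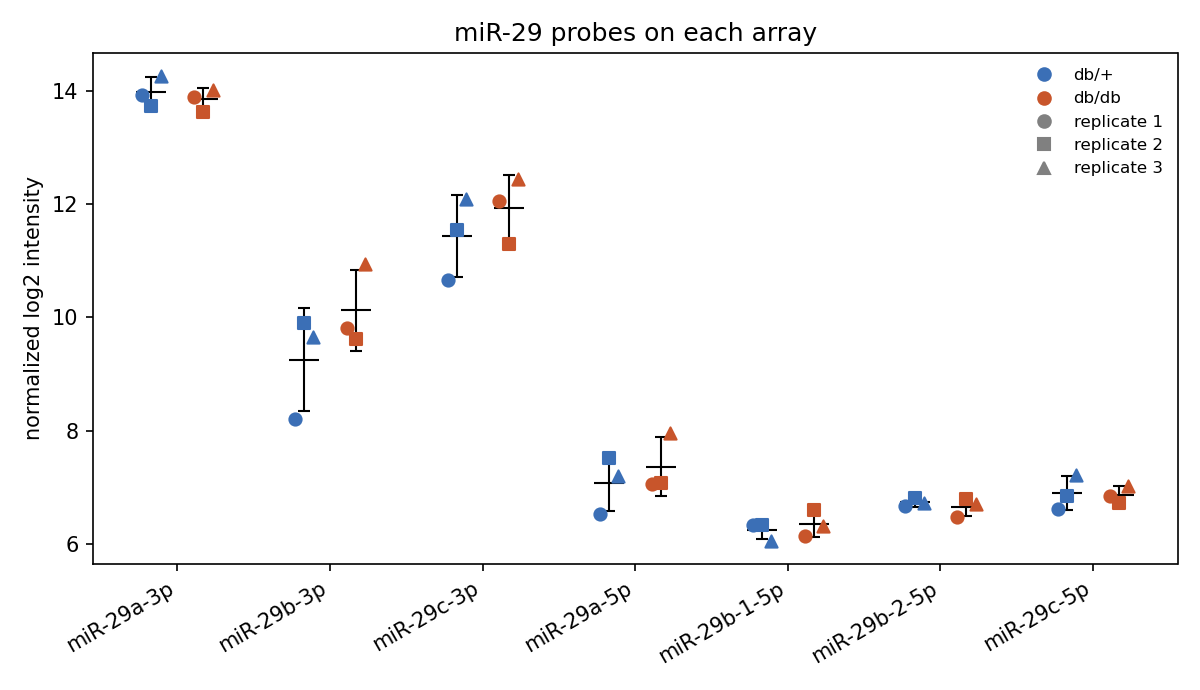
Normalized log2 intensity (vertical axis) of the 7 miR-29 probes (horizontal axis) on each array, blue for db/+ and orange for db/db, with marker shapes for replicates 1 to 3 and black bars for the mean ± SD of 3 arrays. The groups overlap for every probe, and the miR-29b-3p and miR-29c-3p values spread over 2.74 and 1.78 while those of miR-29a-3p stay within 0.63.

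No member differed between db/db and db/+ cells beyond the spread of the samples. All 7 members passed the detection filter. None had an adjusted p under 0.05, as none of the tested probes had, and at an unadjusted p under 0.05 there were 0 members in either direction, where 2.88% of tested probes were higher and 2.12% lower. No member had groups that do not overlap, where 9.65% of all tested probes did. For miR-29b-3p the log2 difference, db/db minus db/+, was 0.87 (SE 0.52), with a 95% interval of -0.36 to 2.10 (limma, adjusted p = 0.89). This corresponds to a 1.83-fold higher mean in db/db cells, and 14 of the 1181 tested probes had a larger difference in either direction. For miR-29c-3p the log2 difference was 0.50 (SE 0.42), with an interval of -0.50 to 1.49 (limma, adjusted p = 0.89). For miR-29a-3p it was -0.13 (SE 0.18), with an interval of -0.55 to 0.30 (limma, adjusted p = 0.92).

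Single arrays carried much of these differences. Without db/+ replicate 1, the array with the highest median blank, the miR-29b-3p difference was 0.34 and that of miR-29c-3p 0.12. Without db/db replicate 3, the array with the fewest detected probes, they were 0.46 and 0.24. Without db/+ replicate 3 the miR-29c-3p difference was 0.82 and that of miR-29a-3p changed sign to 0.018, and without db/db replicate 2 the miR-29c-3p difference was 0.82 too. Spike controls also split the arrays, with db/+ replicates 1 and 2 and db/db replicate 2 bright and the others dim. Within the bright arrays the miR-29b-3p difference was 0.56 and within the dim arrays 0.73, and for miR-29c-3p the values were 0.19 and 0.16. With that split as a block miR-29c-3p had 0.17, with a limma adjusted p of 0.85. Each of these within-split values rests on an arm of 1 array.

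**Figure D2:**
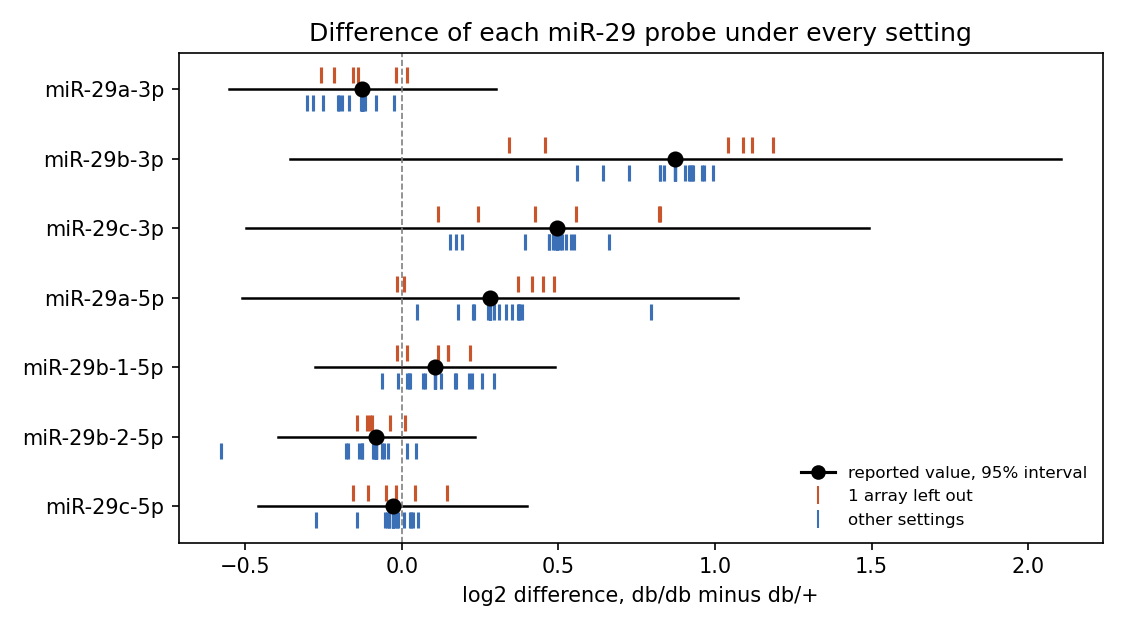
Log2 difference, db/db minus db/+ (horizontal axis), of each miR-29 probe (vertical axis); black points and lines give the reported value and its 95% interval from limma over 6 arrays, orange ticks the value with 1 array left out, and blue ticks the value under each other setting. All 7 intervals include 0, and the miR-29b-3p ticks run from 0.34 to 1.19.

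A comparison within each array asked whether the members moved unequally. The log2 signal of miR-29b-3p minus that of miR-29a-3p was -5.73, -3.84 and -4.61 in db/+ replicates 1, 2 and 3 and -4.08, -4.02 and -3.08 in db/db replicates 1, 2 and 3. This difference of probes moved by 1.00 from db/+ to db/db (SE 0.64), and the groups overlapped. The corresponding shift of miR-29c-3p against miR-29a-3p was 0.62 (SE 0.43), and that of miR-29b-3p against miR-29c-3p was 0.38 (SE 0.34). Each of the 3 shifts had an exact two-sided permutation p of 0.30, also after adjustment over the 3 pairs, where 3 against 3 arrays cannot go below 0.10. An unequal response of the members was thus not detectable with 6 arrays.

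The 5p arms were dim. The miR-29a-5p probe gave a scanner signal of 120, 205 and 71.6 in db/+ replicates 1, 2 and 3 and of 107, 122 and 281 in db/db replicates 1, 2 and 3, which is 1.24 to 3.85 times the median blank. On the normalized log2 scale it read 6.53, 7.51 and 7.19 against 7.05, 7.07 and 7.96. As with miR-29b-3p, the lowest array was db/+ replicate 1 and the highest db/db replicate 3. Its log2 difference was 0.28 (SE 0.33; limma, adjusted p = 0.92), and leaving out db/+ replicate 1 gave 0.0078, leaving out db/db replicate 3 gave -0.015. Measured by the root mean square distance between log2 profiles centred on their own means, miR-29a-5p lay 0.36 from miR-29c-5p, 0.37 from miR-29c-3p, 0.41 from miR-29b-3p and 0.47 from miR-29a-3p, the other arm of its own hairpin. The profiles were not scaled, so the distance also counts the size of a swing and does not rank the members by shape.

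The 2 arms that mark the miR-29b gene copies were close to the blanks. The miR-29b-1-5p probe, from the chromosome 6 copy, was not above the blank threshold on db/+ replicate 1 and db/db replicate 3 and reached at most 1.32 times the median blank. The chromosome 1 copy's miR-29b-2-5p was detected on all 6 arrays at 1.28 to 1.77 times the median blank, with a normalized log2 intensity of 6.66, 6.82 and 6.72 in db/+ and 6.47, 6.78 and 6.70 in db/db samples. Their log2 differences were 0.11 (SE 0.16) and -0.080 (SE 0.13). Neither probe showed the low db/+ replicate 1 or the high db/db replicate 3 of miR-29b-3p, but at signals this close to the blanks, where an offset of 50 was added to every value, changes are compressed, so the copy behind the miR-29b-3p swing cannot be read from them. The last arm, miR-29c-5p, gave 1.36 to 2.13 times the median blank, a log2 difference of -0.028 (SE 0.18), and overlapping groups.

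Over the 7 members 4 had a log2 difference above 0 and 3 below, with a median of 0.11, which was -0.053 with 75th percentile scaling over probes detected on every array, where that of all tested probes was -0.14. The 0.11 is the value of miR-29b-1-5p, which was detected on 4 of 6 arrays and lay close to the blanks. Of all tested probes 45.6% were above 0, and their median was -0.023.

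**Figure D3:**
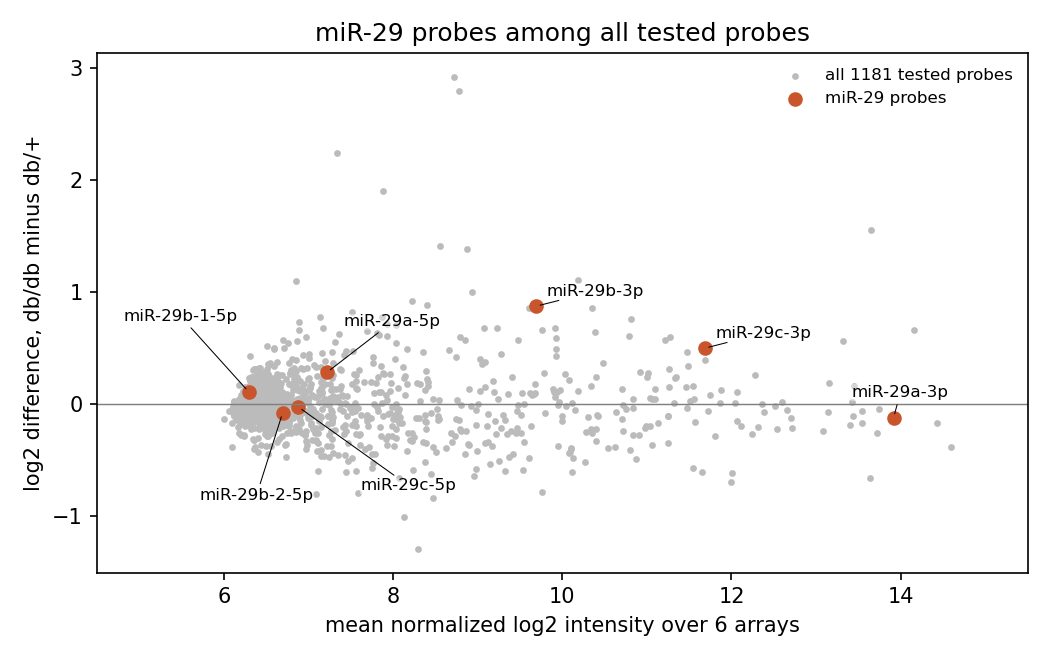
Log2 difference, db/db minus db/+ (vertical axis), against the mean normalized log2 intensity over 6 arrays (horizontal axis) for 1181 tested probes in grey, with the 7 miR-29 probes in orange. The 5p arms lie in the dim crowd at the left, and miR-29b-3p, at 0.87, stands near the upper edge of probes of its brightness.

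The pattern of each main arm was set beside all 665 other probes detected on all 6 arrays, by the same root mean square distance over 6 arrays. Nearest to miR-29b-3p were miR-142a-3p at 0.17, miR-15a-5p at 0.26 and miR-142a-5p at 0.26, where the median probe was at 0.84. Nearest to miR-29c-3p were miR-15a-5p at 0.16, miR-142a-5p at 0.17 and miR-19a-3p at 0.20, with a median of 0.64. The distance between miR-29b-3p and miR-29c-3p themselves was 0.39, larger than to these probes outside the family. Nearest to miR-29a-3p were miR-345-3p at 0.061, the bright miR-24-3p at 0.073 and miR-425-3p at 0.079, but miR-345-3p and miR-425-3p were close to the blanks, at most 2.17 and 1.97 times their median, where changes are compressed. On db/+ replicate 1 miR-142a-3p and miR-19a-3p were close to the blanks too, at 1.57 and 1.64 times their median. A probe with a wide swing lies far from every level probe, so the medians of 0.84 and 0.64 partly reflect the swing itself. These distances are descriptions, since all points share the same 6 arrays and their normalization.

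The miR-142a arms are made in blood cells of all lineages, and miR-15a belongs to a family that restrains the cell cycle. The sequences of the nearest probes follow, with the seed in capitals, to show that neither shares the miR-29 seed. The miR-142a-3p target holds AGUGUU, the end of miR-29b-3p, within its first bases, as 15 of the 1900 targets do anywhere.
miR-142a-3p: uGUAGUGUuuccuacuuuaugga
miR-15a-5p: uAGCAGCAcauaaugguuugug
The miR-142a-3p probe read 6.79, 8.54 and 7.93 on the normalized log2 scale in db/+ samples and 8.12, 8.26 and 9.65 in db/db samples. Its log2 difference was 0.92 (SE 0.55; limma, adjusted p = 0.89), and it had the lowest value on db/+ replicate 1 and the highest on db/db replicate 3, as miR-29b-3p had. That lowest value was close to the blanks, at 1.57 times their median. For miR-142a-5p the difference was 0.68, and for miR-15a-5p it was 0.61. The pan-haematopoietic marker sums given above overlap between the groups, and the stromal sums are apart by a narrow gap. No probe of either list passed, and their part in the miR-29b-3p and miR-29c-3p values was not tested.

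**Figure D4:**
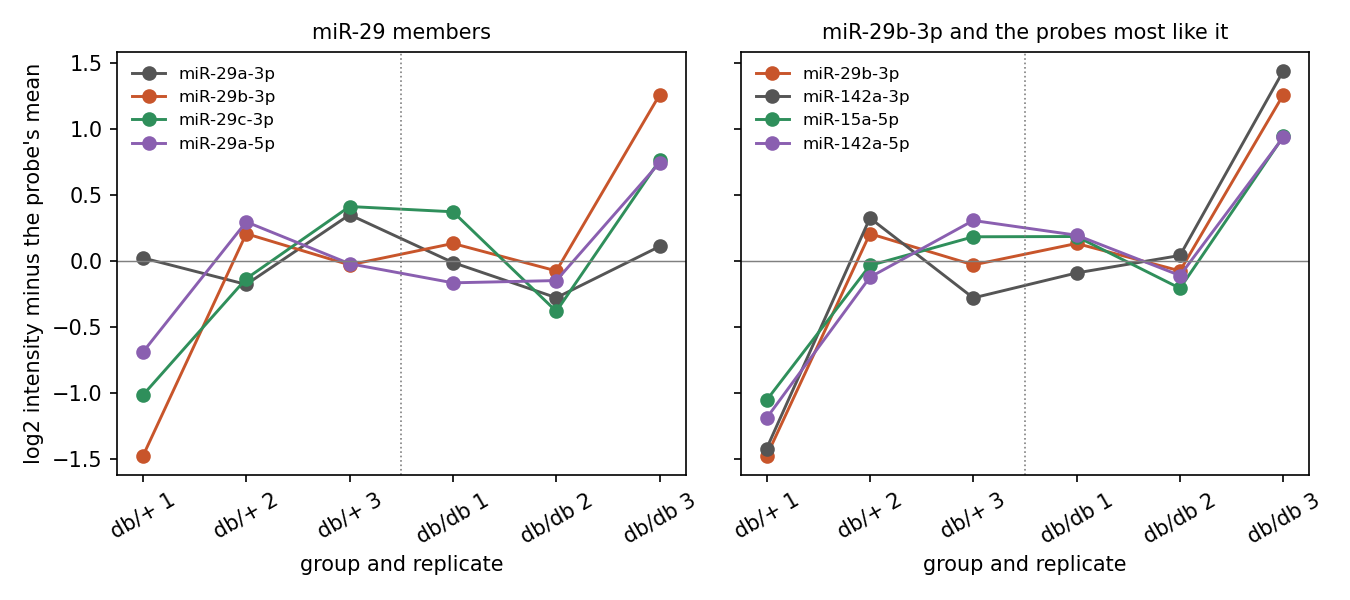
Normalized log2 intensity minus the probe's own mean over 6 arrays (vertical axis) for each array (horizontal axis; lines only join the points of a probe), for 4 miR-29 probes at the left and for miR-29b-3p with its 3 nearest probes at the right. In both panels db/+ replicate 1 is low and db/db replicate 3 high, by -1.48 and 1.26 for miR-29b-3p, except for miR-29a-3p, at 0.021 and 0.11.

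Base composition was described because the members with the wide spread are poor in G and C. The GC share was 34.8% for miR-29b-3p and 36.4% for miR-29c-3p and miR-29a-5p. It was 40.9% for miR-29a-3p and miR-29b-1-5p, 44% for miR-29b-2-5p and 50% for miR-29c-5p. Of the probes nearest to miR-29b-3p or miR-29c-3p, miR-142a-3p and miR-19a-3p had 34.8%, miR-142a-5p 33.3% and miR-15a-5p 40.9%. Nearest to miR-29a-3p, miR-345-3p had 59.1%, miR-24-3p 54.5% and miR-425-3p 61.9%. As a description, the 68 probes detected on all arrays with at most 36.4% GC had median deviations from their own means of -0.059 on db/+ replicate 1 and 0.088 on db/db replicate 3, and their largest median deviation, -0.40, was on db/+ replicate 3. On that array miR-29b-3p deviated by -0.032 and miR-29c-3p by 0.41. A median over many probes varies less than a single probe, so these values are not a like comparison, and the part of base composition in the miR-29b-3p and miR-29c-3p values was not tested. Among tested probes with at most 35% GC the median log2 difference was 0.089 over 52 probes, and between 35 and 40% it was 0.0040 over 75 probes. Above 0 were 65.4% and 50.7% of these probes, where 45.6% of all tested probes were.

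The 2 spots of a probe show the error within an array, and not that of labelling, hybridisation or RNA preparation. For miR-29b-3p the spot printed first was brighter on every array, by 0.12 to 0.54 on the log2 scale, and for miR-29a-3p and miR-29c-3p the ratio of spots ran from -0.17 to 0.58 and from -0.14 to 0.54. With the first or the second spot alone the log2 difference of miR-29b-3p was 0.92 or 0.82.

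Other miRNAs of the matrix and insulin pathways were looked at as lists. A probe was put in a list by its miRNA name without arm and gene copy, so both arms of a listed miRNA count, though their seeds differ. In the matrix-linked list, which names miRNAs tied to fibrosis or collagen, 38 of 51 probes were tested and 0 passed. Of the tested probes 9 were above 0 and 29 below 0, with a median log2 difference of -0.15. That median was 0.0020 within the bright arrays, with db/db replicate 2 alone for db/db. Within the dim arrays it was -0.36, with db/+ replicate 3 alone for db/+. Of the 38 tested probes 2 had an unadjusted p under 0.05, where 2.88% of all tested probes were higher and 2.12% lower by that rule. Groups that do not overlap were seen for 5 of the 38, where 9.65% of all tested probes had them. The 5 probes with the smallest p were miR-16-2-3p at -0.46, miR-192-5p, a miRNA of epithelia and kidney, at -0.43, the stromal miR-214-3p at -0.61 and miR-199a-3p at -0.70, and miR-30c-5p, a repressor of connective tissue growth factor, at -0.29. All 5 had a limma adjusted p of 0.89. Among them miR-16-2-3p and miR-192-5p were dim, reaching at most 2.95 and 2.68 times the median blank. Members of the list are among the stromal markers, whose summed signal was lower in db/db samples with a narrow gap between the groups, as given above.

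In the insulin-linked list 31 of 41 probes were tested and 0 passed, with 12 above 0, 19 below 0 and a median of -0.12. That median was 0.0013 within the bright arrays and -0.34 within the dim arrays, each again resting on an arm of 1 array. Of the 31 tested probes 3 had an unadjusted p under 0.05 and 6 had groups that do not overlap, to be read against the same shares of all tested probes (2.88% higher, 2.12% lower, and 9.65%). The 5 probes with the smallest p were miR-223-5p at -0.44, miR-130a-3p, which represses the fat cell regulator PPARγ, at -0.52, the inflammation-induced miR-146a-5p at -0.43, the stromal miR-143-3p at -0.44 and miR-17-3p at -0.35, each with a limma adjusted p of 0.89. Among these 5, miR-223-5p and miR-17-3p were dim, reaching at most 3.10 and 2.28 times the median blank. The other arm of miR-223, the much brighter miR-223-3p, is in the list too and had a log2 difference of 0.56 (limma, adjusted p = 0.89). The lists share 6 probes and are not separate from each other. The median of the miR-29 members, 0.11, lay above both medians, but the difference was not tested. That 0.11 is the value of miR-29b-1-5p, a probe close to the blanks.

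The deposited processed intensities, which the authors made from the same scans, gave the same picture for the main arms. There miR-29b-3p had 214, 902 and 705 in db/+ replicates 1, 2 and 3 and 868, 704 and 1983 in db/db replicates 1, 2 and 3. The miR-29c-3p values were 1555, 2806 and 4314 against 4128, 2600 and 5602, and those of miR-29a-3p were 13846, 14713 and 21219 against 16504, 12490 and 16380. On these values db/+ replicate 1 was again the lowest and db/db replicate 3 the highest for miR-29b-3p and miR-29c-3p, and groups overlapped for all 3 arms.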

How the data were processed

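Total RNA, 1 µg per sample, was tailed, tagged, stained with Cy5 and hybridised by a service provider, per the labels' protocols. The deposited scanner files give a median linear intensity per spot without local background, per the file headers. The authors' deposited value table holds processed linear intensities; no header or label names the method. Normexp (offset 50, all spots), quantile normalization over miRNA spots, log2 and averaging of 2 spots were done with limma 3.58.1 in R 4.3.3. Probes detected on at least 3 of 6 arrays were tested with lmFit and eBayes and Benjamini-Hochberg adjustment over all of them, and the steps were tested on simulated data. The simulation and its pass limits were revised several times: in earlier versions, with larger or one-sided changes and the same noise for every probe, false calls ran well over the nominal rate, and they were still somewhat over it in the version kept, which draws each probe's noise separately. Named were all miR-29 probes, the 3 probes most like each main arm, the 5 smallest p of each list, and markers. The members, lists and rules were chosen with earlier results of these data known. Alternatives covered background, offset, normalization, the authors' table, filter, variance model, weights, blocks, spots and left-out arrays. Figures used matplotlib 3.10.9.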

Additional observations from a re-analysis of the deposited data

How the results depend on the processing

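No miR-29 probe passed in any of the 24 alternative settings. The miR-29b-3p and miR-29c-3p differences stayed above 0 in all of them, between 0.34 and 1.19 and between 0.12 and 0.82, and so did the 3 shifts within arrays. Part of this was fixed in advance. The filter, the variance model and the replicate block cannot change these values, and the shifts were computed without array weights. Both 75th percentile scalings give the same shifts as no normalization between arrays. The median of the members ran from -0.053 to 0.29, below 0 with the 75th percentile over detected probes, with the second spot and without db/db replicate 3. The count of passing probes, 0 as reported, was 1 with an offset of 16, with 75th percentile scaling, with the first spot and when a probe had to be detected on all 6 arrays, 2 with an intensity trend and robust variance together, and 4 with the 75th percentile over probes detected on all arrays. With an array left out it was 0 to 3. With the blank median subtracted the list medians were -0.47 for the matrix-linked and -0.43 for the insulin-linked list, where all tested probes had -0.11. That subtraction also moved miR-29b-2-5p to -0.58 and miR-29a-5p to 0.80. Small differences changed sign. For miR-29c-5p the value was 0.026 with 75th percentile scaling, 0.053 with cyclic loess, 0.037 without normalization between arrays, 0.0073 with the authors' table and 0.028 with array weights. For miR-29b-1-5p it was -0.064 with the 75th percentile over detected probes and -0.010 with the second spot, and for miR-29b-2-5p 0.047 within the bright spike set and 0.018 with the first spot. With an array left out, miR-29a-3p ran from -0.26 to 0.018, miR-29a-5p from -0.015 to 0.49, miR-29b-1-5p from -0.014 to 0.22, miR-29b-2-5p from -0.14 to 0.0092 and miR-29c-5p from -0.16 to 0.14. The cause of these changes was not tested. With the replicate number as a block, miR-29b-3p had 0.87 (SE 0.37; limma, adjusted p = 0.94), and 0 probes passed. Samples of the same number correlated at -0.043, -0.0029 and 0.037 in their deviations from group means. Between different numbers the values ran from -0.36 to 0.37, the highest for db/+ replicate 3 with db/db replicate 1. Deviations from a mean of 3 arrays depend on each other, so whether the numbers pair the samples cannot be read from these values. Signal close to the blanks limits the 5p arms, and 3 arrays per group limit every member.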
